A study of Mus musculus with 4 samples.

Results

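Fragments of small nuclear RNAs (snRNAs), the RNA cores of the splicing machinery, were followed in small RNA libraries from mouse fetal liver. The libraries came from wildtype livers and from livers of Ago2 catalytic dead mutants (Ago2 CD), whose Argonaute 2 protein cannot cut its RNA targets, with 2 libraries per genotype that the submitters describe as biological replicates. Dissected livers were frozen, and Trizol-extracted total RNA went into a modified Illumina TruSeq small RNA protocol. The age of the embryos, the strain and the allele beyond its name are not given in the sources used here. Members were genes of type snRNA in the GENCODE mouse annotation, chosen by their read number: at least 20 reads of 18 nt or more, summed over the 4 libraries, that matched the gene without mismatch and matched no miRNA hairpin. This gave 516 genes of the 1383 annotated and of the 745 with any read. Because most snRNA genes are near-identical copies, the 516 genes formed 426 pools of copies. Each read was given to 1 pool, which left 135 units with a read of their own, 33 of them with 20 or more reads and together with 97.9% of the 16368 member reads. A total of 10 genes lay just inside the limit with 20 to 22 reads, and 20 genes lay just outside it with 17 to 19.

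Most introns are removed by the major spliceosome. In it U1 recognises the 5′ splice site and U2 the branch point, U4 holds U6 inactive until activation, U5 aligns the exons, and U6 forms the catalytic core with U2. A rare class of introns is removed by the minor spliceosome, in which U11, U12 and U6atac take the places of U1, U2 and U6, while U7 is not a splicing RNA but guides the cutting of histone mRNA 3′ ends. All of these except U6 and U6atac carry a U-rich Sm site, around which a ring of Sm proteins (in U7 partly of Sm-like ones) closes. U6 and U6atac are made by RNA polymerase III and end in a run of U residues bound by the related LSm proteins.

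By type, the members were 397 genes of U6, 57 of U1, 20 of U2, 8 of U5, 5 of U6atac, 4 each of U4 and U12, 2 of U7 and 1 of U11, with 18 left without a type. The annotation names no U4 and no U6atac gene. Gm24265 for U4 and Gm25541 for U6atac were recognised by their sequences after the files were seen, other copies were typed by alignment to them, and both type names rest on that reading. U6 took 45.4% of member reads, U1 19.1%, U2 17.2%, U5 9.85%, U6atac 3.27%, U7 1.58% and U4 1.44%, and U11 and U12 each held under 1%. The leading unit was Rnu6 with 6250 reads for a pool of 43 copies giving the same reads, followed by Rnu1a1 with 2823, Rnu2-10 with 2374, Rnu5g with 750 and Gm25541 with 535. Copies cannot be told apart by most reads: 81.4% of member reads matched more than 1 pool. In addition 47.1% of them also matched the transcript of another kind of gene that contains an snRNA sequence, most often Med23 for U6, Creb5 for U1, B930036N10Rik for U5 and Grcc10, whose transcript holds all 259 U7 reads.

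The fragments that carried the largest part of each type are shown first, since the later results refer to their ends. Each is the most frequent read of its type among the reads that could be printed. The reads of the leading U6 pool are not printed, and the U6 read shown is from a variant copy. Capitals mark the Sm site letters ATTTNTG or ATTTTTTG, searched on the sense strand of the reads, where a read has them, and the reads given are the sum over the 4 libraries. Bases are counted from 1 at the annotated 5′ end of the gene, and coordinates are those of the gene copy named, in the GRCm38 build of the annotation.
U1 (Rnu1a1, bases 147 to 164 of 164, 427 reads, chr11:87423013-87423030, + strand): cgttcgcgctctcccctg
U2 (Rnu2-10, bases 170 to 187 of 191, 192 reads, chr11:101658407-101658424, + strand): ctccaggaacggtgcacc
U4 (Gm24265, bases 81 to 99 of 141, 10 reads, chr5:115489539-115489557, + strand): ccccgccgtgacgacttgc
U5 (Rnu5g, bases 86 to 103 of 116, 62 reads, chr9:65201739-65201756, - strand): caATTTTTTGaggccttg
U6 (Gm23264, bases 86 to 107 of 107, 88 reads, chr17:66086179-66086200, + strand): tcttgaagcgttccatattttt
U7 (Rnu7, bases 42 to 62 of 62, 93 reads, chr6:124741225-124741245, - strand): gacttcggtcggaaaacccct
U11 (Rnu11, bases 87 to 105 of 134, 23 reads, chr4:132270109-132270127, - strand): aATTTTTTGgtaattgggc
U12 (Rnu12, bases 133 to 151 of 151, 13 reads, chr15:83149776-83149794, + strand): gggtgacgcgatctgcccg
U6atac internal (Gm25541, bases 69 to 88 of 126, 22 reads, chr2:27539843-27539862, - strand): aacacacatacggttaaggc
U6atac 5′ end (Gm25541, bases 1 to 25 of 126, 18 reads, chr2:27539906-27539930, - strand): gtgttgtatgaaaggagagaaggtt
The last of these is not the most frequent U6atac read and was added, after the values were seen, because it separates the 5′ end of that RNA from its interior.

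The libraries held 13138065 to 21875540 reads, of which 3223116 to 6736913 were of 18 nt or more and outside hairpins. As a check of the labels, mir-451a, an erythroid miRNA known to need the cutting activity of Ago2, had 346152 and 302176 reads scaled to 1000000 reads of 18 nt or more (RPM) in wildtype, against 2121 and 1872 RPM in Ago2 CD. The tissue check found the erythroid mir-144, the hepatocyte mir-122 and the leukocyte mir-142 in every library. The longest read was 50 nt in 1 library of each genotype (wildtype replicate 1, Ago2 CD replicate 2) and 46 nt in the remaining pair, so read length crosses the genotypes. Some tissue markers shared this split. The hepatocyte mir-122 had 36480 and 65138 RPM in the 46 nt pair against 7795 and 19097 RPM in the 50 nt pair, and the 2 leukocyte hairpins, both higher in each 46 nt library, summed to 50320 and 68315 against 27471 and 39378 RPM. The neural hairpins summed to 190.6 and 304 RPM against 5.09 and 10.8 RPM, with 5 of 6 higher in both 46 nt libraries, although these 5 are 2 sets of copies that share all their reads (mir-124a and mir-9), and none of the 6 was at 0 in all libraries. The 5 muscle hairpins summed to 252 RPM in wildtype replicate 1 and to 12.6 to 22.1 RPM elsewhere. Of the 3 pancreas and gut hairpins 1 was higher in both 46 nt libraries. Among them mir-215 had 60.5 RPM in wildtype replicate 2 and 0.587 to 1.37 RPM elsewhere. The part of these differences in the results was not tested, and values within each pair are given where a result turns on them.

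**Figure D1:**
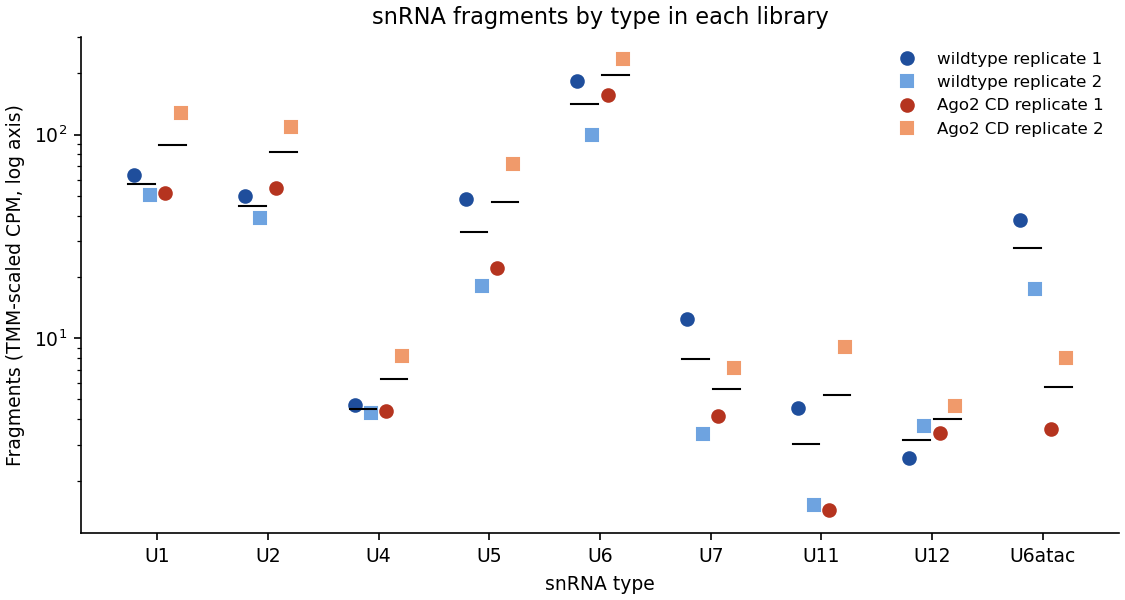
Fragments of 9 snRNA types in each library, as CPM (scaled counts, log axis) scaled by TMM over all miRNA hairpins and small non-coding RNAs. Points are libraries and black lines are the means of 2 libraries per genotype. U6atac is the type whose wildtype points (38 and 17.4) both lie above both Ago2 CD points (3.57 and 8.0), U2 shows the opposite order, and the points of the other types interleave.

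Together the member reads numbered 2526 and 2046 in wildtype against 5924 and 5872 in Ago2 CD. As a share of reads outside hairpins these were 0.0472% and 0.0635% in wildtype against 0.0951% and 0.0872% in Ago2 CD, with means of 0.0553% ± 0.0115 and 0.0912% ± 0.00564 (SD, n = 2 each). Both Ago2 CD libraries lay above both wildtype libraries, by 1.65-fold in the means. The exact two-sided permutation test gave p = 0.33, the smallest that 2 against 2 libraries allow. Reads from the opposite strand of the same genes, measured the same way as background, numbered 17, 30, 66 and 60 in the order wildtype replicates 1 and 2 and Ago2 CD replicates 1 and 2. Scaled to reads outside hairpins these were 3.17, 9.31, 10.6 and 8.91 RPM, which overlap between genotypes, and the ratio of the Ago2 CD mean to the wildtype mean was 1.56, near that of the sense reads. Other classes of small RNA on this scale also had both Ago2 CD values above both wildtype values. Mitochondrial rRNA had 237 and 495 RPM in wildtype against 702 and 649 RPM in Ago2 CD. The annotation class misc_RNA had 182 and 336 against 455 and 376 RPM, and scaRNAs had the same order. The snoRNAs, mitochondrial tRNAs, rRNAs and ribozymes overlapped. A share of this kind depends on what else is in the library, and fewer cells of a type cannot be told apart from less RNA per cell in these bulk samples.

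The genotypes were therefore compared unit by unit, as CPM (counts scaled to 1000000 reads after TMM adjustment of library size), with edgeR's quasi-likelihood test, fitted to hairpins and small non-coding RNA units together, with p-values adjusted by the Benjamini-Hochberg method over all of them. Of the 135 snRNA units 22 passed the filter on low counts and were tested. None of them passed an adjusted p of 0.05 in either direction, against 0.174% of all 574 units tested, and 1 had an unadjusted p under 0.05, against 1.22% of all units. The DESeq2 and limma voom fits also called 0 of the 22, each with 1 unadjusted p under 0.05. That number was 4 of the 22 with the longest-read length as a batch term and 0 with the replicate block. The share of all units with such a p-value was not counted in these alternative fits, so these numbers have no background to set them against. With reads summed by type, 0 of the 9 named types passed in edgeR against 0.178% of the 561 features, and 1 type, U6atac, had an unadjusted p under 0.05 against 1.43%. The CPM of the genotypes did not overlap in 6 units that were higher and 1 that was lower in Ago2 CD, against 14.1% and 11.3% of all units. The 22 log2 fold changes of Ago2 CD over wildtype had a median of 0.55, with 20 above 0. Over all 574 units the median was 0.06, with 318 above 0. The 22 mitochondrial tRNAs tested were all above 0 with a median of 0.67 to 0.68 in the type and unit fits. The 2 mitochondrial rRNAs were also above 0, with a median of 0.79 in the unit fit. Without Ago2 CD replicate 2 the median of the snRNA units was -0.38 (23 units tested). It was 1.53 without wildtype replicate 1 (34 units), 1.38 without Ago2 CD replicate 1 (32 units) and 0.32 without wildtype replicate 2 (34 units), so it moved with each library left out and changed sign with one. Among related RNAs, the 8 other structural RNAs tested, such as Rn7sk, which holds the transcription factor P-TEFb inactive, and the Y RNAs Rny1 and Rny3, were all above 0 with a median of 0.46. The 26 C/D and 8 H/ACA snoRNAs tested, which guide RNA modification, had medians of -0.09 and -0.17, and none of these lists had a unit past the threshold with edgeR.

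U1, which pairs with the 5′ splice site, had 63.5 and 50.3 CPM in wildtype against 51.4 and 127 CPM in Ago2 CD. In CPM its high value came from Ago2 CD replicate 2 alone, and the genotypes overlapped. Scaled to reads outside hairpins, U1 had 73.2 and 134 RPM in wildtype against 162 and 191 RPM in Ago2 CD, which did not overlap. The share of all features without overlap on this scale was not counted. With reads outside hairpins as library size the median log2 fold change of all units was 0.31, beside 0.06 in the main fit. The log2 fold change of U1 over wildtype was 0.65 ± 0.55 (SE), with an edgeR adjusted p of 0.997, and it was -0.12 without Ago2 CD replicate 2. Along Rnu1a1 the reads fell into separate blocks. The most frequent start was base 147, from which the 3′ terminal stem-loop reads printed above run to the last base, and it was used by 41, 113, 203 and 70 reads in wildtype replicates 1 and 2 and Ago2 CD replicates 1 and 2. A further block started between 6 bases before and 2 bases after the first base of the Sm site, which lies at bases 126 to 132, and held 37.0% of the unit. This Sm block took 45.8% of the unit's reads in wildtype replicate 1 (95% exact binomial interval 40.5 to 51.2) and 51.4% in Ago2 CD replicate 2 (48.4 to 54.3), against 23.6% (19.5 to 28) and 22.5% (19.8 to 25.3) in wildtype replicate 2 and Ago2 CD replicate 1. The split follows the longest-read pairs and not the genotypes. Base 104 as a start showed the reverse split, with 1 and 3 reads in the 50 nt pair and 18 and 64 in the 46 nt pair.

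U2, which pairs with the branch point, had 50.02 and 38.8 CPM in wildtype against 54.9 and 109 CPM in Ago2 CD. In CPM it was the only type of the 9 in which both Ago2 CD values exceeded both wildtype values, against 12.8% of all features in that fit. Scaled to reads outside hairpins, U2 had 57.7 and 104 RPM in wildtype against 173 and 163 RPM in Ago2 CD. On that scale U1, U4, U5 and U6 also had both Ago2 CD values above both wildtype values, and the share of all features was not counted. The log2 fold change of U2 was 0.88 ± 0.49 (SE), with an edgeR adjusted p of 0.997. The log2 difference was 0.50 within the 46 nt pair and 1.12 within the 50 nt pair. In the leading unit Rnu2-10 a block of fragments started between 5 bases before and 2 bases after base 170 and held 30.4% of the reads. The most frequent last base of the unit was 187, with 519 reads, which is 4 bases short of the annotated end. A block starting at bases 43 to 48 held 15.3%, with 39 and 47 reads in wildtype against 191 and 87 in Ago2 CD. Scaled to reads outside hairpins these were 7.28 and 14.6 against 30.7 and 12.9 RPM, which overlap (exact two-sided permutation p 0.667), and as shares of the unit they averaged 15.9% ± 0.971 and 15.1% ± 7.91 (SD, n = 2 each). No read of U2 started at its first 3 bases (0 of 2819, where a count of 0 allows up to 3 reads).

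U4, the partner that keeps U6 inactive, gave 29 and 37 reads in wildtype against 86 and 83 in Ago2 CD, or 4.69, 4.30, 4.39 and 8.20 CPM. In CPM only Ago2 CD replicate 2 stood above the rest. Scaled to reads outside hairpins, U4 had 5.41 and 11.5 RPM in wildtype against 13.8 and 12.3 RPM in Ago2 CD, which did not overlap (share of all features not counted). The log2 fold change was 0.48 ± 0.53 (SE) and the edgeR adjusted p 0.997. In Gm24265 the most frequent last base was 99, reached by 36 of its 221 reads, and starts at bases 75 to 83 accounted for 33.9%.

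U5, which aligns the exons and serves both spliceosomes, had 48.1 and 18.1 CPM in wildtype against 22.2 and 71.6 CPM in Ago2 CD. In CPM the order followed the longest-read pairs, with the 50 nt libraries high in both genotypes. Scaled to reads outside hairpins, U5 had 55.5 and 48.4 RPM in wildtype against 69.9 and 108 RPM in Ago2 CD, which did not overlap (share of all features not counted). The log2 fold change of 0.50 ± 0.79 (SE) had an edgeR adjusted p of 0.997. Starts at bases 82 to 90 of Rnu5g, next to its Sm site at bases 88 to 95, held 52% of the unit's 750 reads. The reads here were 89 and 42 in wildtype against 106 and 153 in Ago2 CD. Further U5 copies had reads that Rnu5g does not hold, with 325 in Gm25099, 224 in Gm24871, 126 in Gm22265 and 86 in Gm23143. In Gm25099 these were 57 and 19 in wildtype against 44 and 205 in Ago2 CD, again with the 50 nt pair high, and the log2 fold change was 1.00 ± 1.24 (SE, adjusted p 0.996 with edgeR).

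The Sm site letters were found in the leading units of U1, U2, U4, U5, U11 and U12, and in none of the 259 reads of U7. Reads starting at the first base of the site or up to 5 bases before it differed in share between these units. They made up 31.0% of Rnu1a1, 44.3% of Rnu5g and 60.2% of Rnu11 reads, 11.2% of Rnu2-10 and 10.9% of the U4 unit, and 6.21% of Rnu12. Over all member reads the motif letters were present in 19.1% and 13.9% of wildtype reads and in 13.3% and 24.01% of Ago2 CD reads. Among reads of snoRNAs, taken as a comparison set without an Sm site, the same letters were in 0.339% to 0.422%. Within types the motif was in 77.1% and 74.1% of U5 reads in the 50 nt pair and 52.6% and 53.3% in the 46 nt pair. U6 and U6atac, which have no Sm site, had the letters in at most 0.439% of reads and in none of 536 reads, respectively. This is a match of letters and no measure of protein binding.

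**Figure D2:**
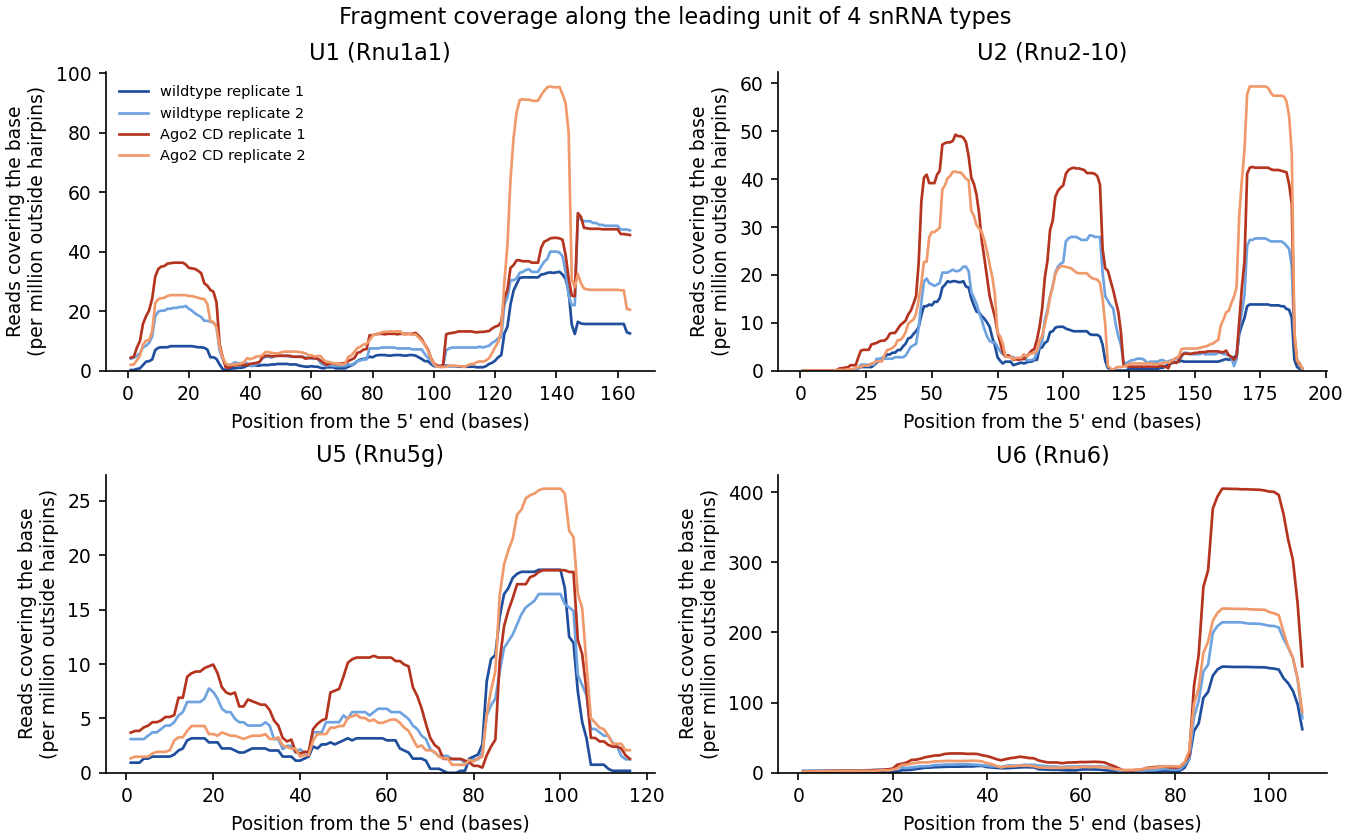
Reads covering each base (RPM, scaled to reads outside hairpins) of the leading unit of U1, U2, U5 and U6, counted from the 5′ end, 1 line per library. U6 coverage lies almost wholly at the 3′ end, U1 has a separate 3′ block from base 147, and the U1 peak at the Sm site is highest in Ago2 CD replicate 2.

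U6, the catalytic snRNA, was the largest type, with 184 and 99.7 CPM in wildtype against 156 and 234 CPM in Ago2 CD. The CPM of the genotypes overlapped for the type, whereas the leading unit Rnu6 alone had 141 and 90.9 CPM in wildtype against 144 and 176 CPM in Ago2 CD. Scaled to reads outside hairpins, the type had 212 and 266 RPM in wildtype against 492 and 352 RPM in Ago2 CD, which did not overlap (share of all features not counted). The log2 fold change of the type was 0.46 ± 0.46 (SE), with an edgeR adjusted p of 0.997. The fragments came from one place: starts at bases 80 to 92 of the 107-base Rnu6 held 87.9% of the unit's 6250 reads. By library this share was 90.1% and 87.5% in wildtype against 88.3% and 86.3% in Ago2 CD. Base 84 was the most frequent start with 1463 reads, then base 86 with 1271 and base 88 with 1021. The variant copy Gm23264, whose read is printed above, had 112 and 16 reads in wildtype against 34 and 239 in Ago2 CD. Its high values were both in the 50 nt pair, and the log2 fold change was 0.37 ± 1.53 (SE, adjusted p 0.996 with edgeR). Of the tested U6 units the highest log2 fold change, 1.62 ± 1.27 (SE, adjusted p 0.996 with edgeR), belonged to Gm22583, with 6 and 0 reads in wildtype against 21 and 17 in Ago2 CD.

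The 3′ end of U6 ends in T residues in the gene (U in the RNA), 5 of them in Rnu6, and this run is known to be lengthened and shortened in cells. Reads that reached the run, including those with added T, were sorted by its length. A run of exactly 5 was the most frequent in every library, in 33.3% and 32.1% of wildtype and 33.8% and 31.5% of Ago2 CD reads. Runs longer than annotated made up 14.2% (95% exact binomial interval 12.1 to 16.5) and 12.8% (10.6 to 15.4) in wildtype against 9.67% (8.60 to 10.8) and 11% (9.59 to 12.5) in Ago2 CD. Both wildtype libraries were above both Ago2 CD libraries. The mean run was 4.07 and 3.96 bases in wildtype against 3.80 and 3.76 in Ago2 CD, a difference of -0.23 bases, with an exact two-sided permutation p of 0.33, the smallest possible. Reads with 1 added C after the run were 42 and 94 in the 50 nt pair and 0 and 2 in the 46 nt pair, so added C followed that split. A single added A was found in 26, 13, 52 and 42 reads, or 1.67% to 2.6%.

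**Figure D3:**
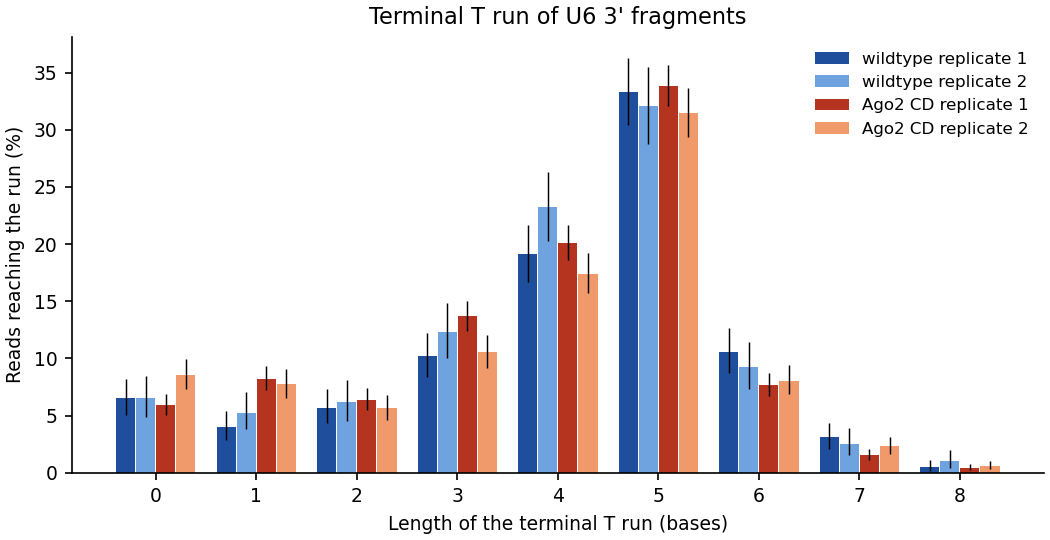
Share of U6 reads reaching the terminal T run (Rnu6, % of such reads in a library) by length of the run in bases, with exact binomial 95% intervals that cover counting error only. The distributions peak at 5 in all 4 libraries, and the runs of 6 are highest in wildtype replicate 1 (10.6%).

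U7, the guide of histone mRNA processing, had 12.5 and 3.37 CPM in wildtype against 4.13 and 7.11 CPM in Ago2 CD, and its values interleaved. The log2 fold change of -0.49 ± 0.77 (SE, adjusted p 0.997 with edgeR) changed sign when reads outside hairpins (0.016) or all reads (0.27) set the library size. Its fragments came mostly from near the 3′ end, with 118 of 259 reads starting at base 42 and 148 ending at the last base, 62. U11 and U12 of the minor spliceosome were rarer. U11, its counterpart of U1, had 28 and 13 reads in wildtype against 28 and 92 in Ago2 CD, and 68.3% started between 7 bases before and 2 bases after the first base of the Sm site. U12, its counterpart of U2, had 16 and 32 reads in wildtype against 67 and 47 in Ago2 CD, and 61 of the unit's 161 reads ended at its last base, 151. The log2 fold changes were 0.80 ± 1.05 and 0.34 ± 0.49 (SE), both with an edgeR adjusted p of 0.997.

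U6atac, the counterpart of U6 in the minor spliceosome, had the lowest log2 fold change of the 9 types. It had 235 and 150 reads in wildtype against 70 and 81 in Ago2 CD, or 38 and 17.4 CPM against 3.57 and 8.0 CPM. Every wildtype value lay above every Ago2 CD value, which was so for 11.8% of all features in that fit. The log2 fold change was -2.26 ± 0.70 (SE), with an unadjusted p of 0.0230 that did not pass adjustment over all 561 features (edgeR adjusted p = 0.997). The difference was of like size within the longest-read pairs, with -2.23 in the 46 nt and -2.22 in the 50 nt pair. The adjusted p was 0.0625 with the longest-read length as a batch term and 0.0760 with DESeq2, and it ran from 0.0625 to 1 over the alternatives. As a share of member reads U6atac made up 9.30% (95% exact binomial interval 8.20 to 10.5) and 7.33% (6.24 to 8.55) in wildtype against 1.18% (0.922 to 1.49) and 1.38% (1.10 to 1.71) in Ago2 CD.

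The lower U6atac counts came mainly from one stretch of the RNA. Reads starting at bases 66 to 80, a window chosen after the positions were seen and so given as a description, numbered 178 and 81 in wildtype against 13 and 13 in Ago2 CD. Scaled to 1000000 reads outside hairpins, this is 33.2 and 25.1 RPM against 2.09 and 1.93 RPM. Reads starting at bases 1 to 3 were 15 and 41 in wildtype against 24 and 27 in Ago2 CD, or 2.80, 12.7, 3.85 and 4.01 RPM, and these values interleaved. Reads starting elsewhere in U6atac were 42 and 27 in wildtype against 33 and 41 in Ago2 CD, or 7.84 and 8.38 against 5.30 and 6.09 RPM. The internal window thus held 75.7% (95% exact binomial interval 69.7 to 81.1) and 54.4% (46 to 62.5) of the unit's reads in wildtype against 18.6% (10.3 to 29.7) and 16% (8.83 to 25.9) in Ago2 CD. Its reads were short, with a median of 20 and 19 nt in wildtype against 20 and 21 nt in Ago2 CD. They most often ended at base 88, where the internal read printed above also ends, with 53 and 19 reads in wildtype against 3 and 0 in Ago2 CD.

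**Figure D4:**
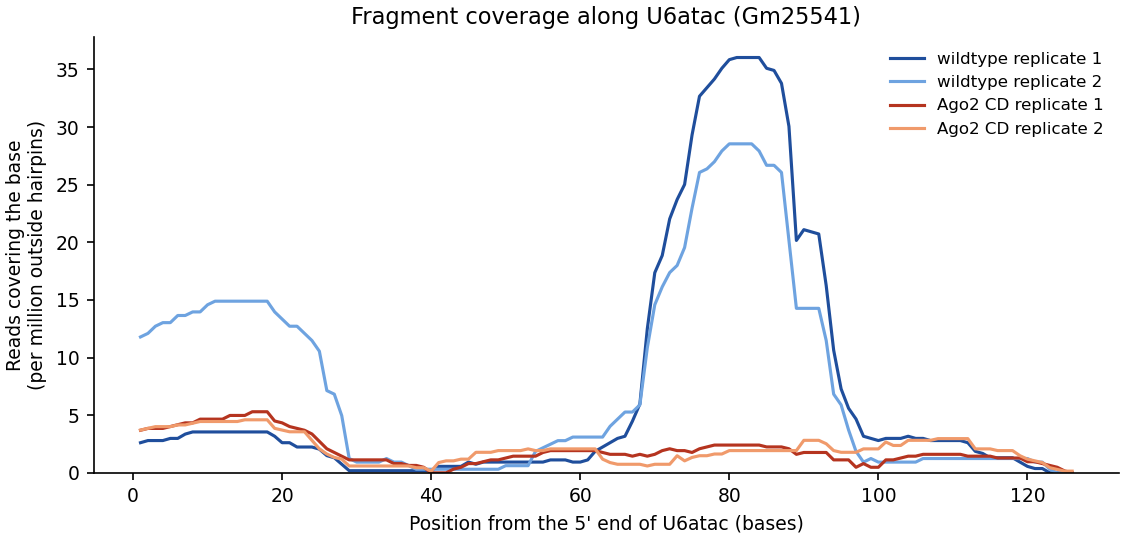
Reads covering each base of U6atac (Gm25541), in RPM of reads outside hairpins, from its 5′ end, 1 line per library. Between bases 69 and 88 both wildtype lines stand above both Ago2 CD lines, whereas at the 5′ end wildtype replicate 2 alone is high (41 reads starting at bases 1 to 3).

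Part of this stretch is not unique to Gm25541. Bases 56 to 94 of Gm25541, 39 in all, are identical in a transcript of C5ar2, a protein-coding gene on chromosome 7 for a receptor of a complement fragment. C5ar2 contains Gm26473 (chr7:16234738-16234864, - strand), another of the 5 U6atac members, which was matched by 280 reads and had 1 read of its own, in wildtype replicate 2. The other U6atac members, Gm23879, Gm22031 and Gm24831, were matched by 46, 32 and 28 reads and had none of their own. Of the 285 reads of the window, 229 match both Gm25541 and C5ar2: 151 and 63 in wildtype against 7 and 8 in Ago2 CD. Which of these loci they came from cannot be told apart by sequence. The other 56 match Gm25541 and not C5ar2, with 27 and 18 in wildtype against 6 and 5 in Ago2 CD, or 5.04 and 5.58 against 0.964 and 0.742 RPM, a ratio of 6.23. With every read that C5ar2 could hold left out, the U6atac type had a log2 fold change of -1.02 ± 0.60 (SE, adjusted p 0.997 with edgeR), and with reads of 1 pool only it was -1.35. Without wildtype replicate 1 it was -1.62.

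The same comparison was made for each 5′ end position, again with edgeR over all positions of hairpins and small RNAs. Of 2227 positions tested 65 were in snRNA units, and 0 of these passed an adjusted p of 0.05, as did 0% of all positions. An unadjusted p under 0.05 was found at 4 of the 65, against 2.42% of all positions, and these were bases 69, 70, 75 and 76 of U6atac. Base 69 had 35 and 17 reads in wildtype against 0 and 1 in Ago2 CD, base 70 had 26 and 12 against 1 and 1, base 75 had 23 and 12 against 1 and 2, and base 76 had 18 and 10 against 3 and 1. The unadjusted p-values were 0.0134, 0.00805, 0.0162 and 0.0116, and the edgeR adjusted p-values 0.995, 0.717, 1.00 and 0.923. Base 69 passed with DESeq2 (adjusted p 0.0211), with the longest-read batch term (0.0427) and without the filter on low counts (0.00504). The share of all positions that passed in these 3 fits was not counted. The limma voom fit gave 0 of the 65 snRNA positions an unadjusted p under 0.05. Base 1 of U6atac, with 14 and 38 reads against 23 and 25, did not pass (unadjusted p 0.294 with edgeR). The CPM did not overlap at 17 positions that were higher in Ago2 CD, 9 of them in U2, 5 in U1 and 3 in U6, and at 4 that were lower, all in U6atac, against 13.4% and 9.7% of all positions.

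The share of short reads overlapped between the genotypes. Of all member reads 98.0% and 96.5% in wildtype against 95.2% and 97.4% in Ago2 CD were of 18 to 27 nt, with means of 97.3% ± 1.03 and 96.3% ± 1.58 (SD, n = 2 each) and an exact two-sided permutation p of 0.667. No member read reached 36 nt in any library, although reads of up to 46 or 50 nt were present. The median length was 20 or 21 nt in every library. U6 and U7 reads were most often of 20 to 24 nt (63.3% and 71.8% over all libraries), and this class held 47.0% of U1 reads. The most frequent single length of U1 and of U5 was 18 nt in every library, the shortest length counted. Over all member reads it was 19 nt in wildtype replicate 1 and 18 nt in the other libraries. Shorter fragments were not seen, so the length medians and shares given here cover only reads of 18 nt or more. Over all member reads the narrower class of 20 to 24 nt averaged 55.7% ± 3.20 in wildtype against 54.6% ± 0.580 in Ago2 CD (SD, n = 2 each), and the libraries overlapped. By type this class did not overlap between genotypes in 2 of the 9 named types, U2 and U6, and the share among other small RNAs was not counted. It averaged 53.3% ± 2.49 against 47.7% ± 3.03 in U2 and 65.3% ± 2.38 against 62.4% ± 0.0242 in U6 (wildtype first, SD, n = 2 each, exact two-sided permutation p 0.33 for both, the smallest possible).

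**Figure D5:**
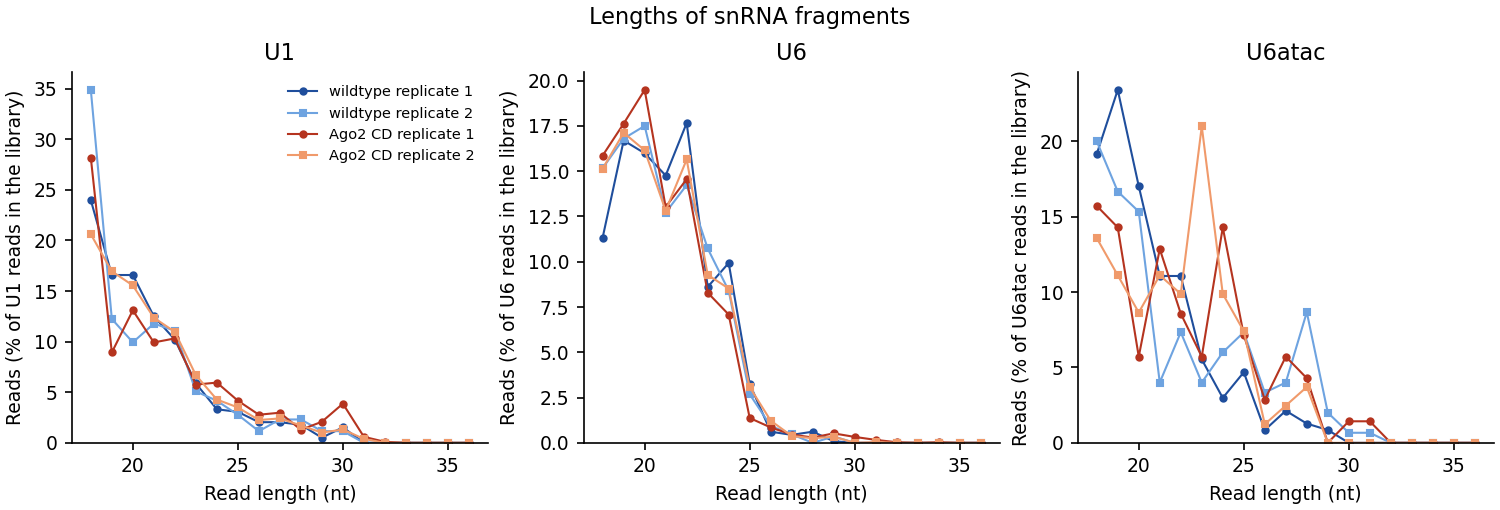
Lengths of U1, U6 and U6atac reads (nt) as a percentage of that type's reads in each library. U1 falls from a maximum at 18 nt, the shortest length counted, U6 is spread between 18 and 24 nt, and U6atac is uneven with 70 to 235 reads per library.

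Few fragments began at the 5′ end of the parent RNA. Starts at bases 1 to 3 made up 1.19% to 3.96% of member reads by library, with means of 2.57% ± 1.96 for wildtype and 1.74% ± 0.469 for Ago2 CD (SD, n = 2 each, exact two-sided permutation p = 1). Pooled over libraries the share was 19.96% for U6atac and 10.5% for U12, 3.01% for U1, 3.04% for U5 and 0.552% for U6. Ends within 2 bases of the annotated last base made up 39.6% ± 0.180 for wildtype and 37.4% ± 6.76 for Ago2 CD (SD, n = 2 each, exact permutation p 1). Pooled over libraries they made up 69.5% of U7, 68.2% of U6 and 40.7% of U12 reads, and 0.933% of U6atac and 1.99% of U2 reads. The order of U7 and U6 differed by library, with U7 at 83.1% and 77.8% and U6 at 73.4% and 65.7% in the 50 nt pair, and U7 at 65.5% and 50.6% and U6 at 68.7% and 68.1% in the 46 nt pair. The U2 share was 30.5% when ends within 5 bases were counted, a setting added after the data were seen.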

How the data were processed

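The deposited files hold read counts: each distinct read with its number of occurrences, raw and whole, as the authors deposited them. The adapter trimmer cutadapt is named in the submitters' processing notes, and its settings and other steps are not given in the sources used here. Reads of 18 nt or more were matched without mismatch to GENCODE vM21 (GRCm38) transcripts, first to miRNA hairpins and then to small non-coding RNA genes on the sense strand. Reads shared between snRNA copies went to the pool that explained most of the remaining reads. Types were taken from gene symbols or the best alignment to a gene with one (at least 0.5 of the maximal score per base). The design left genes without such a name untyped. After the files were seen, U4 and U6atac were added by hand, each from 1 gene. Counts were tested with edgeR 4.0.16 (quasi-likelihood, TMM, filterByExpr) in R 4.3.3, with limma 3.58.1 and DESeq2 1.42.0 as alternatives. Counts were simulated for the 574 units of the unit comparison with a dispersion of 0.05, and 561 of them passed the filter in the simulated data. Of these, 99.47% of the 187 units changed by a log2 fold of 3 were recovered, with 8 false calls. The dispersion was a fixed setting and was not taken from the real libraries, so this recovery does not give the power of the real comparison. In the real fit the U6atac unit Gm25541 had a log2 fold change of -2.24 ± 0.69 (SE) and an edgeR adjusted p of 0.996. Shares were compared with exact permutation tests and given exact (Clopper-Pearson) intervals (SciPy 1.17.1). Intervals and the 3-count limit cover counting error only, since PCR copies were not marked. Named units were the one with most reads in each type and further units by total reads up to 25, of which 22 could be tested. Reads with a copy on chromosome 18 were not printed as sequences, which narrows the stated choice of sequences. The windows of start positions, the exclusion of reads shared with C5ar2 and the wider limit for 3′ ends were chosen after the data were seen. Libraries held 13138065 to 21875540 reads. The 1 scaRNA tested had a log2 fold change of 0.52. Members and lists were chosen with earlier results of these data known. Same-numbered libraries did not deviate together (correlation -0.749 across units), and the numbers were not used as a pairing.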

Additional observations from a re-analysis of the deposited data

Results flagged for a closer look

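Reads that matched an snRNA only after removal of 1 to 3 bases from the 3′ end lay outside the comparisons of the report and were above the wildtype level in both Ago2 CD libraries. They numbered 492 and 331 in wildtype against 964 and 1178 in Ago2 CD, or 91.9 and 103 RPM of reads outside hairpins against 155 and 175 RPM, with a mean of 164.8 RPM in Ago2 CD. As a share of matched and tailed snRNA reads they were 16.3% and 13.9% in wildtype against 14% and 16.7% in Ago2 CD, so the share did not separate the genotypes. Added C was found in 137 and 323 reads of the 50 nt pair and in 1 and 10 of the 46 nt pair. An added A was found in 105 and 148 reads in wildtype against 487 and 398 in Ago2 CD. As a share of matched and tailed reads these were 3.48% and 6.23% against 7.07% and 5.65%, which overlap. By type, 24.6% and 28.3% of U2 reads were tailed in wildtype against 28.8% and 26.8% in Ago2 CD.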

How the results depend on the processing

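The counts of snRNA units past the threshold were 0 under all 16 alternatives, including each library left out. Of 535 recomputed values, 499 were rated the same. For fold changes this means the same direction and side of the threshold. For counts it means a similar number, and for shares a shift smaller than the SD between libraries. A total of 28 fold changes changed sign, none of them called. Sign changes of shares were not counted. The difference in 3′ ends was -2.21 percentage points within 2 bases of the last and 1.64 within 5, a sign change rated the same. The count of snRNA 5′ ends past the threshold was 1 with DESeq2, 1 without the filter on low counts and 1 with the longest-read batch term, in place of 0. The share of all positions past the threshold was not counted in these fits. The share of snRNA reads differed by 0.0181 percentage points with all reads as denominator and by 0.000351 on the antisense strand. Scaling by all reads of 18 nt or more moved the median log2 fold change of all units from 0.06 to 0.61, and by reads outside hairpins to 0.31, with the snRNA units at 1.13 and 0.78. U7 was 0.27 and 0.016 under these scalings. With reads of 1 pool only, U12 was -0.0065 and U4 -0.21, and with reads of 20 nt or more Gm24311 was -0.069 and Gm25313 -0.30. Leaving out each library in turn gave log2 fold changes from -1.02 to 1.73 for U11, from -0.12 to 1.10 for U1, from -0.012 to 0.80 for U4, from -0.54 to 1.33 for U5 and from -1.12 to 0.72 for U7. Among units the ranges were -0.53 to 1.43 for Gm22265, -1.60 to 2.22 for Gm23143, -2.46 to 2.69 for Gm23264, -1.40 to 1.82 for Gm23298, -0.61 to 1.77 for Gm24311, -0.17 to 2.69 for Gm24871, -1.29 to 2.28 for Gm25099, -0.64 to 1.33 for Gm25313, -0.073 to 1.06 for Rnu1a1, -0.47 to 1.66 for Rnu1b6 and -0.35 to 0.68 for Rnu5g. The cause of these shifts was not tested. The U6atac type kept its direction under all 17 alternatives, from -2.92 to -1.02, the latter without the reads shared with C5ar2, an alternative added after the data were seen.

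With the replicate number as a block, 0 units passed and U6atac was at -2.27 with an edgeR adjusted p of 1. Same-numbered libraries correlated at -0.749 in their deviations. In the crossed pairing, which is the same as the longest-read batch term, 0 units and 1 snRNA 5′ end passed, with the share over all positions not counted.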
